A study of Bos taurus with 24 samples.

Results

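Histone modifiers and chromatin remodelers were described in bovine oocytes through their messenger RNA. The set held every gene whose symbol began with KDM, KMT, HDAC, SIRT, SETD, EHMT, PRMT, KAT, BRD, SMARC, CBX, CHD, EZH or SUV, or was one of the ING genes, and 83 of the 11306 gene symbols met that rule. By role they were 3 histone acetyltransferases, 16 deacetylases and sirtuins, 15 histone lysine methyltransferases, 8 protein arginine methyltransferases, 6 histone demethylases, 16 readers (bromodomain, chromobox and ING proteins) and 19 ATP-dependent remodelers. RNA-seq was performed on 24 libraries, 6 for each of 4 groups: germinal vesicle (GV) oocytes of spring (May), GV oocytes of summer (July), metaphase II (MII) oocytes of spring and MII oocytes of summer. The question was how gene expression differed between the cool and the hot season, and between oocytes before and after maturation. All oocytes came from crossbred Angus-based beef cows of 3 to 6 years that were neither lactating nor pregnant, from a herd of 10 animals. The study's methods describe each library as a pool of 4 oocytes from 1 cow with the cumulus cells removed by hyaluronidase and vortexing, and the MII oocytes had been matured in vitro, so an MII library shows oocytes matured in culture and not in the follicle. The labels do not say which libraries of different groups came from the same cow.

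Expression was given as FPKM (fragments per kilobase of gene model, relative to the mapped total), scaled so that every library had the same total. Each value is therefore a share of the polyadenylated RNA captured. RNA per oocyte and the number of intact oocytes in a pool are not measured, so a change of share need not be a change per oocyte. A change in the amount of a transcript and a change in its poly(A) tail cannot be told apart. Depth relative to spring GV library 1, recovered from the whole steps in which low values rise, was 0.0565 in spring GV library 6, 0.149 in spring MII library 6 and 0.393 in summer GV library 2, and lay between 0.542 and 6.51 in the other libraries. The labelled cell type was checked with 15 oocyte markers, of which 13 were in the table and summed to between 538 and 1936 FPKM in every library. Of 19 cumulus and granulosa cell markers 17 were in the table. FSHR, CYP19A1, AREG and NR5A1 stayed at or under 0.1 FPKM in every library, and each of the others exceeded it in at least 1 spring GV library. The summed level of the 17 ranged from 34.004 to 588 FPKM in GV and from 27.2 to 162 FPKM in MII libraries, with the highest values in spring GV library 6 (588), spring GV library 3 (176), spring MII library 6 (162) and summer GV library 2 (123). The 3 shallow libraries were spring GV 6, summer GV 2 and spring MII 6. Changes of named members from GV to MII are therefore also given without them where a call changes. The 5 blood cell markers summed to between 1.75 FPKM (spring GV library 6) and 21.0 FPKM (spring GV library 3). The part of cumulus or blood cell RNA in any result was not tested.

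Histone modifiers write or erase acetyl and methyl groups on histone tails, readers such as bromodomain and chromodomain proteins dock on those groups, and ATP-dependent remodelers slide or evict nucleosomes. A growing oocyte stores the mRNA and protein of this machinery, then falls silent in transcription at the end of growth, so that maturation proceeds with RNA made earlier. During maturation the chromosomes condense, histones lose much of their acetylation, and stored mRNAs are translated, deadenylated or degraded one by one.

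Most members were expressed at low to moderate levels. The mean over the 24 libraries was above 10 FPKM for 2 members, between 1 and 10 FPKM for 26, between 0.1 and 1 FPKM for 36 and at or under 0.1 FPKM for 19. The median of the 78 members that exceeded 0.1 FPKM in at least 1 library, and so entered the tests, was 0.531 FPKM, against 0.512 FPKM over all 9526 genes that did. The highest means belonged to PRMT6 (16.7 FPKM), ING1 (10.6 FPKM), CBX8 (8.06 FPKM), SMARCE1 (7.56 FPKM) and SMARCA5 (7.29 FPKM). The listed gene models of the leading 3 were short, at 1.36 kb for PRMT6, 0.953 kb for ING1 and 2.09 kb for CBX8, and FPKM divides by length, so these levels depend on those models being complete. The summed level of all members had a median of 166.7 FPKM in spring GV, 126.8 FPKM in summer GV, 74.35 FPKM in spring MII and 68.46 FPKM in summer MII libraries. These sums lean on PRMT6, ING1 and CBX8. Their spring means were 35.7, 20.4 and 17.0 FPKM in GV and 2.62, 2.57 and 1.25 FPKM in MII oocytes. Of the 78 tested members, 43 were higher and 35 lower in MII oocytes of spring, and 38 and 40 in summer. The sum of the other members was not computed. SETD4, CBX7, CHD9, KDM6A and PRMT8 never exceeded 0.1 FPKM and were not tested. The well-known oocyte regulators KDM1A, KDM1B, KDM5B, KDM6B, SETD2 and KAT2A were not analysed here.

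**Figure D1:**
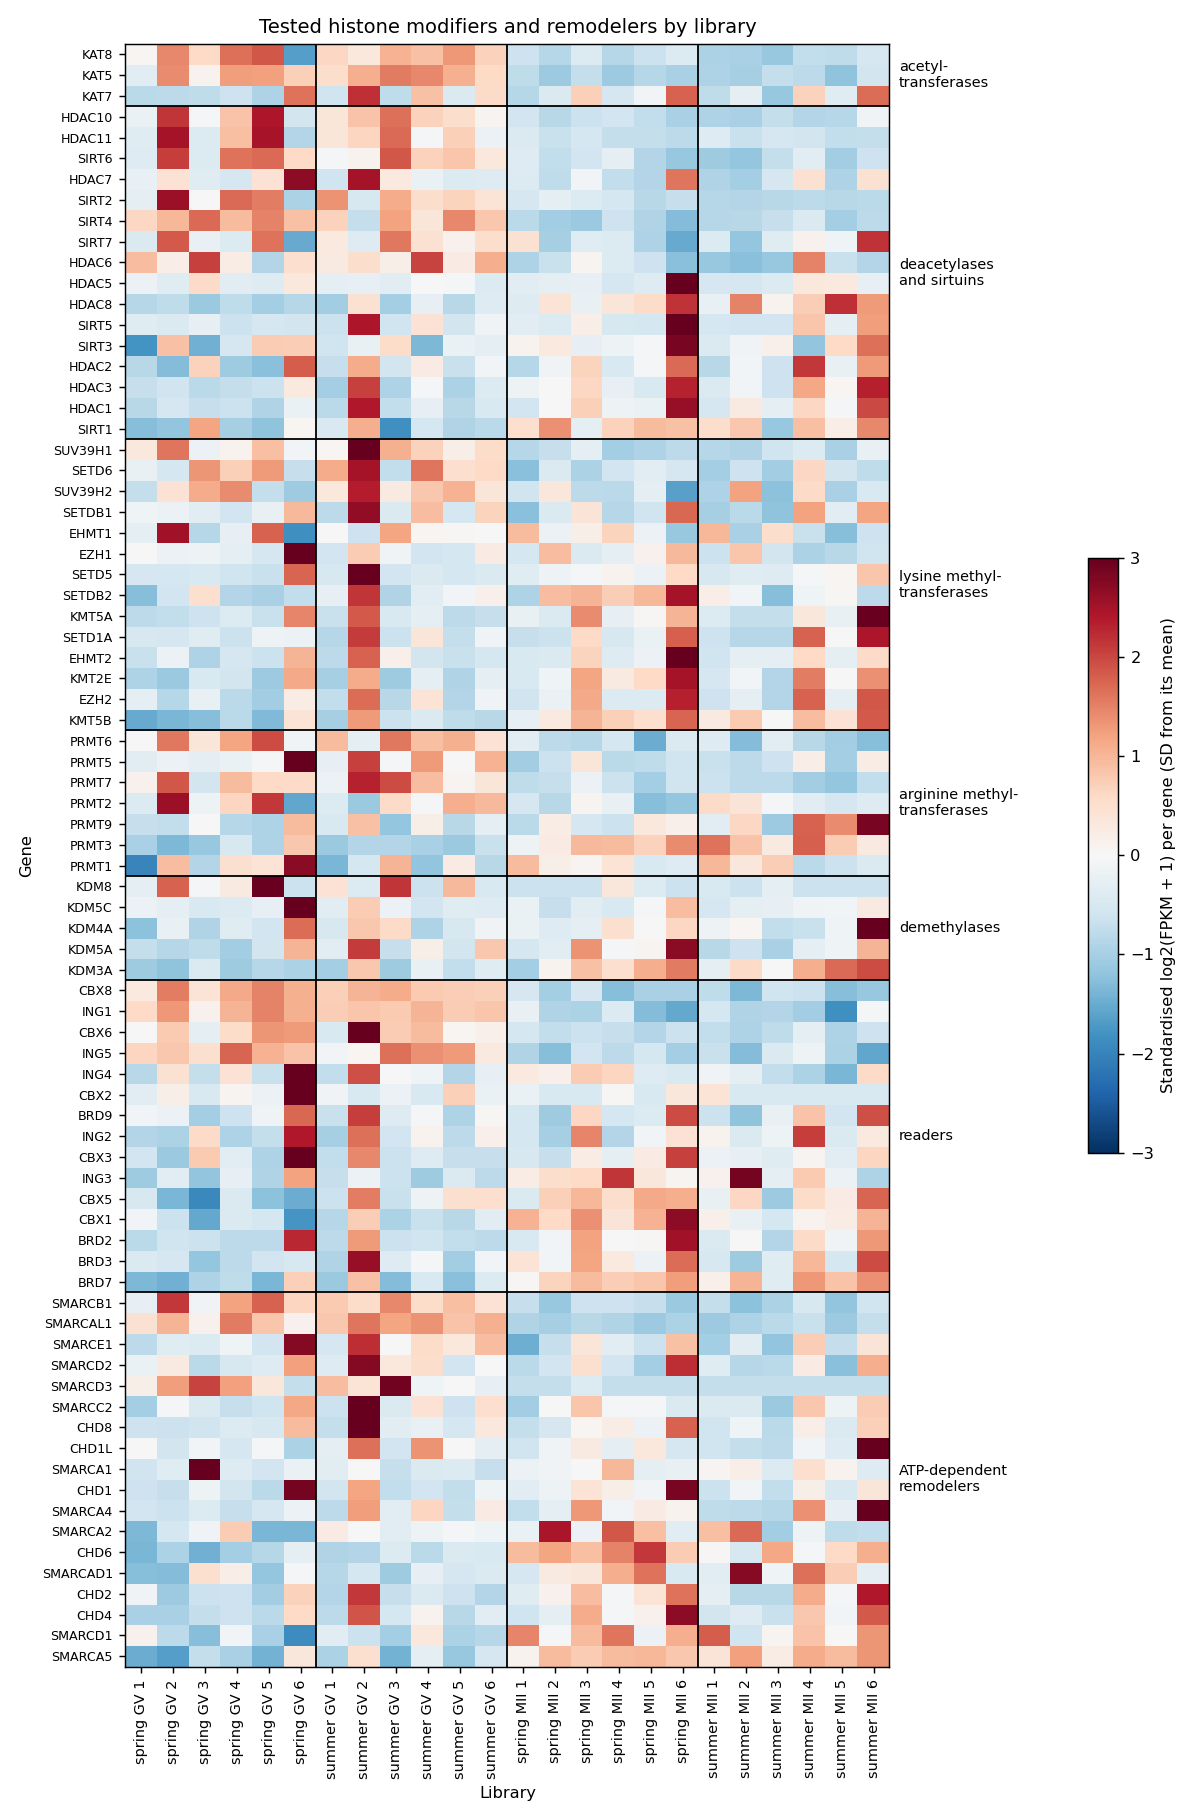
Expression of the 78 tested members in the 24 libraries, as log2(FPKM + 1) in SD from each gene's mean, grouped by role and ordered within a role by the mean change from GV to MII. A block of genes led by KAT8, HDAC10, SUV39H1, PRMT6, CBX8 and SMARCB1 is red in GV and blue in MII libraries of both seasons, and summer GV 2 is the highest of its 6 libraries for 51 of the 78 genes.

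The map of expression by library shows the change from GV to MII together with a spread between libraries of the same group. Summer GV library 2 had the highest value of its 6 libraries for 65.4% of members (52.8% of all tested genes), spring GV library 6 for 48.7% (44.4%), spring MII library 6 for 46.2% (41%) and summer MII library 6 for 50% (33.2%). The last of these was not shallow by the measure above, at a relative depth of 0.542.

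MII oocytes differed from GV oocytes at a small group of members, of which those that fell were largely shared by the seasons, as over all genes. A member was called at an unadjusted limma p under 0.05 with a fold over 2 on the log2(FPKM + 1) scale, which understates changes of genes near or below 1 FPKM. In spring 3 members were higher in MII oocytes (SMARCA5, KMT5B and BRD3) and 6 were lower (CBX8, PRMT6, ING1, SMARCB1, HDAC10 and KAT8). These 9 of 78 stood against 11.8% of all genes called, with 3.57% higher and 8.25% lower. In summer 1 member was higher (SMARCA5) and 8 were lower, namely the same 6 plus PRMT5 and SUV39H1. Of all genes 11.5% were called in summer, with 2.2% higher and 9.26% lower. Over all genes, 88.4% of those called lower in spring were also called lower in summer, and 39.7% of those called higher in spring were also called higher. The share of members called was thus close to the background in each season. The median log2 fold change was 0.02 for members and -0.03 for all genes in spring, and -0.01 and -0.02 in summer. The change had the same sign in both seasons for 65 of 78 members (83.3%) and for 85.5% of all genes. The GV and MII libraries did not overlap for 16 members in spring (background 13.6%) and for 16 in summer (background 17.7%).

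At a Benjamini-Hochberg adjusted limma p under 0.05, with no fold threshold, 9 members were higher and 14 lower in MII oocytes of spring (24.2% of all genes passed, 9.45% as higher and 14.7% as lower), and 5 were higher and 17 lower in summer (30.7% of all genes passed, 7.67% as higher and 23.1% as lower). All 14 members that passed as lower in spring also passed in summer, against 89.7% of all genes that passed as lower in spring. Of the 9 members that passed as higher in spring 3 also passed in summer (33.3%, against 50.6% over all genes). Without the 3 shallow libraries, 21 members were higher and 18 lower in spring and 11 were higher and 17 lower in summer by this rule, where 41.9% and 39.3% of all genes passed, and every member that had passed still passed. Under quantile normalization 24 were higher and 14 lower in spring and 16 were higher and 17 lower in summer, where 34.3% and 41.6% of all genes passed. The share of all called genes that were higher went from 30.2% to 46.2% in spring and from 19.2% to 42.4% in summer under quantile normalization, and to 21.1% and 27.5% under median-of-ratios scaling. With a pseudocount of 0.1 in place of 1, 25 members were called in spring and 20 in summer, where 27.6% and 26.5% of all genes were called. Members below that are named only because they passed the adjusted rule were chosen after their values were seen.

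**Figure D2:**
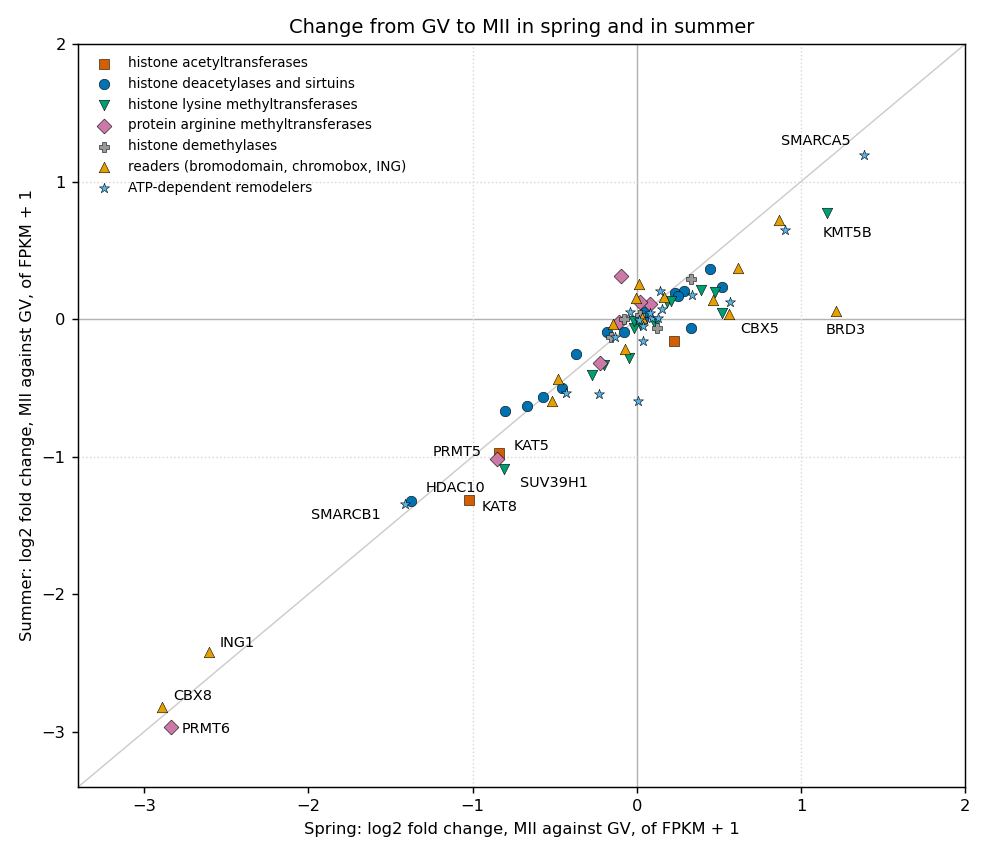
Log2 fold change of FPKM + 1 from GV to MII in spring (horizontal) and summer (vertical), 1 point for each of the 78 tested members, marked by role; dotted lines mark a fold of 2 and the diagonal marks equal change. PRMT6, CBX8 and ING1 lie at the lower left with changes beyond -2.4 in both seasons, and BRD3 lies at 1.21 in spring and 0.06 in summer.

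Among the readers, ING1 and CBX8 showed the deepest falls. CBX8, a chromodomain subunit of Polycomb repressive complex 1, lies on chromosome 19 at 53360164-53362250 in the deposited UMD3.1 coordinates. Its lowest, median and highest values were 6.57, 16.9 and 27.6 FPKM in spring GV oocytes and 0.390, 0.934 and 2.21 FPKM in spring MII oocytes. In summer they were 10.9, 11.5 and 17.4 FPKM in GV and 0.296, 1.003 and 1.88 FPKM in MII oocytes. Every GV library thus lay above every MII library of its season. The log2 fold change was -2.89 (SE 0.37, limma adjusted p = 0.000238, exact permutation p = 0.00216) in spring and -2.82 (SE 0.24, limma adjusted p = 8.63e-06) in summer, and 0.00216 is the smallest p that 6 against 6 libraries allow. ING1, a plant homeodomain protein that recruits the SIN3 deacetylase complex to methylated histone H3, lies on chromosome 12 at 89339068-89340020. It spanned 7.82 to 32.8 FPKM (median 20.8) in spring GV and 0.688 to 5.26 FPKM (median 2.07) in spring MII oocytes. Its summer range was 15.2 to 20.3 FPKM (median 16.1) in GV and 0.241 to 6.54 FPKM (median 2.20) in MII oocytes, again without overlap. The log2 fold change of ING1 was -2.60 (SE 0.39, limma adjusted p = 0.000621) in spring and -2.42 (SE 0.34, limma adjusted p = 0.000208) in summer.

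Other readers moved less or in the opposite direction. ING5, a reader found with histone acetyltransferases, and CBX6, a further Polycomb chromobox protein, passed the adjusted rule as lower in both seasons. The mean of ING5 was 0.616 ± 0.140 FPKM (SD, n = 6) in spring GV and 0.156 ± 0.0592 FPKM in spring MII oocytes, and that of CBX6 was 0.564 ± 0.276 and 0.0773 ± 0.0337 FPKM. BRD7, a bromodomain subunit of a SWI/SNF complex, passed as higher in both seasons (in summer in 13 of 22 settings), from 1.34 ± 0.865 to 3.12 ± 0.594 FPKM in spring and from 1.57 ± 0.910 to 3.16 ± 0.984 FPKM in summer. BRD3, a bromodomain reader of acetylated histones of the BET family, was called in spring: its lowest, median and highest values were 0.634, 1.53 and 1.70 FPKM in GV and 2.27, 3.68 and 10.8 FPKM in MII oocytes (log2 fold change 1.21, SE 0.31, limma adjusted p = 0.0131). In summer GV library 2 read 21.7 FPKM while the other 5 stayed between 0.781 and 2.58 FPKM, and the summer change was 0.06 (SE 0.65). Without spring MII library 6 the spring change of BRD3 was 0.99, under the fold threshold, and without summer GV library 2 the summer change was 0.58 (limma adjusted p = 0.369). The heterochromatin proteins CBX1, CBX3 and CBX5 bind the methyl mark of silent chromatin on histone H3. CBX1 rose from 0.180 ± 0.122 to 0.632 ± 0.225 FPKM and CBX5 from 0.646 ± 0.209 to 1.43 ± 0.283 FPKM in spring by the adjusted rule (limma adjusted p = 0.00946 and 0.0152), each without overlap of the groups. In summer CBX1 had a limma adjusted p of 0.207, and of 0.0307 without the shallow library. CBX3 read 41.7 FPKM in spring GV library 6 against a group median of 1.21 FPKM, and its change of 0.01 (SE 0.81) in spring is uncertain also because reads from near-identical copies could be shared with it. In summer CBX3 passed as higher only without the shallow library (0.67, SE 0.21, limma adjusted p = 0.0275).

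PRMT6 had the highest mean FPKM of the protein arginine methyltransferases in GV oocytes, and in MII oocytes its mean lay between those of PRMT1 and PRMT5. It places asymmetric methyl groups on an arginine of the histone H3 tail, next to the methylated lysine of active promoters, and lies on chromosome 3 at 36428458-36429817. Its lowest, median and highest values were 6.28, 23.6 and 93.9 FPKM in spring GV and 0.275, 2.66 and 4.45 FPKM in spring MII oocytes. The corresponding summer values were 4.70, 25.6 and 58.6 FPKM in GV and 0.6247, 1.55 and 4.45 FPKM in MII oocytes. GV libraries varied over a more than 10-fold range, but the lowest GV value of each season lay above the highest MII value. The ratio of the GV mean to the MII mean was 13.6 in spring and 12.3 in summer, and the log2 fold changes were -2.84 (SE 0.63, limma adjusted p = 0.00683) and -2.97 (SE 0.52, limma adjusted p = 0.00106). PRMT5, the main enzyme of symmetric arginine dimethylation, was called as lower in summer, from 4.18 ± 3.15 to 1.32 ± 0.818 FPKM (log2 fold change -1.02, SE 0.37, limma adjusted p = 0.0525), and its fold fell under the threshold without summer GV library 2 (-0.77), 4 or 6 or summer MII library 1, 2, 3 or 5 (-0.91 to -0.98). In spring its change was -0.85 (SE 0.49), with 20.4 FPKM in GV library 6 against a median of 1.61 FPKM. PRMT7, which monomethylates arginine, passed the adjusted rule as lower in both seasons, with means of 0.267 ± 0.128 and 0.0816 ± 0.0366 FPKM in spring GV and MII oocytes and 0.321 ± 0.170 and 0.0536 ± 0.0251 FPKM in summer. PRMT3, a cytoplasmic enzyme that acts on a ribosomal protein, passed as higher in summer, from 0.0692 ± 0.00746 to 0.155 ± 0.0313 FPKM, and without the shallow libraries also in spring (limma adjusted p = 0.00492). PRMT1, the main source of asymmetric dimethylarginine, did not pass: its means were 6.56 ± 5.73 and 4.81 ± 1.44 FPKM in spring GV and MII oocytes and 3.72 ± 2.16 and 4.71 ± 1.998 FPKM in summer.

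Of the 3 acetyltransferases, KAT5 and KAT8 fell. KAT8 acetylates histone H4, and lies on chromosome 25 at 27475331-27485030. Its lowest, median and highest values in summer were 2.01, 2.88 and 4.17 FPKM in GV and 0.351, 0.575 and 0.908 FPKM in MII oocytes, with no overlap (log2 fold change -1.32, SE 0.16, limma adjusted p = 7.41e-05). In spring 5 GV libraries ranged from 1.599 to 5.99 FPKM while library 6, the shallowest, was listed at the lowest value of the table, 0.01 FPKM. The 6 spring MII libraries lay between 0.582 and 1.01 FPKM. The spring change was called (log2 fold change -1.02, SE 0.40, exact permutation p = 0.0563) at an unadjusted limma p under 0.05 but missed the adjusted rule (limma adjusted p = 0.0775), and the call was lost without spring GV library 2, 4 or 5 (-0.89, -0.86 and -0.83) or without spring MII library 2 or 4 (-0.99 each). Without the 3 shallow libraries it was -1.42 (limma adjusted p = 0.00223). Over all 22 settings of libraries and processing the spring call of KAT8 held in 14, with an unadjusted limma p up to 0.541. KAT5, the catalytic subunit of the NuA4 complex, ranged from 0.483 to 1.74 FPKM in spring GV and from 0.133 to 0.295 FPKM in spring MII oocytes. In summer it ranged from 0.999 to 1.88 FPKM in GV and from 0.0829 to 0.364 FPKM in MII oocytes, so that the groups did not overlap in either season. Its GV mean was 5.80 times the MII mean in spring and 6.28 times in summer, although the change of -0.84 (SE 0.16, limma adjusted p = 0.00353) and -0.97 (SE 0.13, limma adjusted p = 0.000136) on the log2(FPKM + 1) scale stayed under a fold of 2. KAT7, which acetylates histone H3 and H4, had a spring change of 0.22 (SE 0.26) and a summer change of -0.16 (SE 0.28), neither past the test.

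Deacetylases and sirtuins held 1 called member of 16 in each season, HDAC10. HDAC10 is a class II deacetylase whose known substrates include acetylated polyamines, and lies on chromosome 5 at 119814026-119819427. Its spring values ran from 0.326 to 7.79 FPKM (median 1.52) in GV and from 0.01 to 0.303 FPKM (median 0.205) in MII oocytes. In summer they ran from 0.993 to 4.43 FPKM (median 1.76) in GV and from 0.01 to 0.767 FPKM (median 0.0821) in MII oocytes. No MII library reached the lowest GV library of its season. The log2 fold change was -1.37 (SE 0.43, limma adjusted p = 0.0359) in spring and -1.32 (SE 0.23, limma adjusted p = 0.00115) in summer. By the adjusted rule SIRT4, a mitochondrial sirtuin, and SIRT6, a nuclear sirtuin that deacetylates histone H3, were lower in both seasons, and SIRT2, which deacetylates tubulin, and HDAC11 were lower in summer. In spring SIRT2 averaged 0.603 ± 0.528 and 0.117 ± 0.0543 FPKM and HDAC11 1.30 ± 1.44 and 0.120 ± 0.0612 FPKM in GV and MII oocytes (limma adjusted p = 0.083 and 0.0928), and without the shallow libraries both passed as lower in spring too (limma adjusted p = 0.0254 and 0.0429). SIRT6 averaged 1.08 ± 0.649 FPKM in spring GV and 0.257 ± 0.121 FPKM in spring MII oocytes. HDAC8, a class I deacetylase that acts on cohesin, passed as higher in summer, at means of 0.0321 ± 0.0146 and 0.0694 ± 0.0237 FPKM.

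The catalytic subunits of the large deacetylase complexes did not pass the adjusted rule. HDAC1 had means of 0.197 ± 0.108 FPKM in spring GV and 0.849 ± 0.929 FPKM in spring MII oocytes (limma adjusted p = 0.109, exact permutation p = 0.0108), and HDAC2 had 1.54 ± 1.28 and 1.86 ± 0.984 FPKM (limma adjusted p = 0.569). Without the 3 shallow libraries HDAC1, HDAC3 and HDAC8 passed the adjusted rule as higher in spring. SIRT1, a nuclear sirtuin, had a median of 0.828 FPKM in spring GV and 1.90 FPKM in spring MII oocytes (log2 fold change 0.45, SE 0.19, limma adjusted p = 0.0982), and in summer it passed without the shallow library (0.48, SE 0.17, limma adjusted p = 0.0423). HDAC7 had the highest mean of this family, 1.92 FPKM, which rested on 11.6 FPKM in spring GV library 6 and 10.2 FPKM in summer GV library 2, against group medians of 1.44 and 0.845 FPKM.

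Lysine methyltransferases moved in both directions. KMT5B, which adds methyl groups to a lysine of histone H4 and is the highest of this family at a mean of 4.33 FPKM, lies on chromosome 29 at 46321877-46364997. Its lowest, median and highest values were 1.29, 1.54 and 4.80 FPKM in spring GV and 3.25, 5.42 and 10.1 FPKM in spring MII oocytes. The highest GV value was that of library 6 and lay within the MII range, while the other 5 GV libraries stayed at or under 2.24 FPKM. The change was 1.16 (SE 0.28, limma adjusted p = 0.0102, exact permutation p = 0.00649) in spring and 0.77 (SE 0.29, limma adjusted p = 0.0635) in summer. Without summer GV library 2, at 7.88 FPKM, the summer change of KMT5B was 1.01 (limma adjusted p = 0.00359). SUV39H1, which trimethylates histone H3 in heterochromatin, went the other way, from 0.611, 0.921 and 2.70 FPKM to 0.0816, 0.187 and 0.538 FPKM in spring. In summer it had 0.791, 1.33 and 6.95 FPKM in GV and 0.112, 0.246 and 0.574 FPKM in MII oocytes, and the groups of neither season overlapped. Its log2 fold change was -0.81 (SE 0.20, limma adjusted p = 0.0123) in spring and -1.09 (SE 0.31, limma adjusted p = 0.0193) in summer, or -0.78 (limma adjusted p = 0.00197) without summer GV library 2, which held the 6.95 FPKM.

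Its paralog SUV39H2 kept a higher level in MII oocytes, at 1.19 ± 0.284 FPKM in spring and 1.36 ± 0.483 FPKM in summer, against 1.55 ± 0.539 and 1.96 ± 0.515 FPKM in GV oocytes (limma adjusted p = 0.399 and 0.147). The Polycomb methyltransferase EZH2 averaged 0.813 ± 0.369 FPKM in spring GV and 1.76 ± 1.57 FPKM in spring MII oocytes (limma adjusted p = 0.245), and its paralog EZH1 had an overall mean of 0.0398 FPKM. The enzymes of the repressive dimethyl mark on histone H3, EHMT1 and EHMT2, had spring changes of -0.02 (SE 0.10) and 0.52 (SE 0.43), and SETDB1, which silences retroelements, had -0.05 (SE 0.24). None of these 6 genes passed the adjusted rule in either season.

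The 6 demethylases were low, the highest mean over all 24 libraries was 0.296 FPKM, and no member was called. KDM3A, which removes methyl groups from histone H3 and carries the highest mean of the family, passed the adjusted rule in spring. It ranged from 0.0578 to 0.198 FPKM (median 0.0930) in GV and from 0.0905 to 0.637 FPKM (median 0.428) in MII oocytes, a change of 0.33 (SE 0.09, limma adjusted p = 0.0178). In summer the means were 0.202 ± 0.139 and 0.475 ± 0.209 FPKM (limma adjusted p = 0.0521, or 0.0149 without the shallow library). KDM4A, a demethylase of promoters and heterochromatin, lay between 0.0293 and 0.295 FPKM in all 24 libraries, with changes of 0.02 (SE 0.03) and 0.03 (SE 0.05).

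Remodelers held the member with the largest rise and a core subunit that fell. SMARCA5, the ATPase of the ISWI complexes, lies on chromosome 17 at 14546191-14583768. It had lowest, median and highest values of 1.93, 2.79 and 7.73 FPKM in spring GV and 6.65, 10.7 and 11.5 FPKM in spring MII oocytes. In summer they were 2.33, 3.93 and 8.41 FPKM in GV and 7.17, 11.8 and 13.9 FPKM in MII oocytes. In each season the group ranges overlapped only through the shallow GV library (spring GV 6 and summer GV 2). In spring that library exceeded only MII library 1 (6.65 FPKM), which was not shallow, while the other MII libraries read 10.03 to 11.5 FPKM. The log2 fold change was 1.38 (SE 0.27, limma adjusted p = 0.00322, exact permutation p = 0.00433) in spring and 1.19 (SE 0.26, limma adjusted p = 0.00464, exact permutation p = 0.00649) in summer. SMARCB1, a core subunit of the canonical SWI/SNF complexes, lies on the same chromosome at 73222640-73239874. Its lowest, median and highest values fell from 1.17, 3.28 and 7.38 FPKM in GV to 0.300, 0.679 and 0.753 FPKM in MII oocytes of spring, and from 2.17, 2.65 and 4.64 FPKM to 0.225, 0.552 and 0.886 FPKM in summer. The log2 fold change of SMARCB1 was -1.41 (SE 0.32, limma adjusted p = 0.00742) in spring and -1.35 (SE 0.18, limma adjusted p = 0.000142) in summer, with no overlap in either season.

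Further SWI/SNF subunits differed from each other in direction. SMARCE1 had means of 8.41 ± 7.09 and 6.22 ± 2.48 FPKM in spring GV and MII oocytes (limma adjusted p = 0.637), and SMARCD1 rose in spring from 0.834 ± 0.522 to 2.42 ± 0.933 FPKM (limma adjusted p = 0.0178). SMARCD3 passed the adjusted rule as lower, and was near or at the lowest value of the table in MII oocytes: its low values amounted to 31 whole steps over the 6 spring GV libraries, 1 over the spring MII, 74 over the summer GV and 0 over the summer MII libraries. The ATPases SMARCA2 and SMARCA4 had spring changes of 0.13 (SE 0.06) and 0.08 (SE 0.05), neither past the adjusted rule. SMARCAL1, a helicase of stalled replication forks, was lower without overlap in both seasons, from 0.423 ± 0.147 to 0.0513 ± 0.0174 FPKM in spring and from 0.543 ± 0.0866 to 0.0630 ± 0.0349 FPKM in summer. CHD6 passed as higher in both seasons (0.0594 ± 0.0213 to 0.179 ± 0.0288 FPKM in spring), and CHD4, the ATPase of the NuRD deacetylase complex, had 0.479 ± 0.370 and 1.35 ± 1.24 FPKM in spring (limma adjusted p = 0.143, or 0.0334 and so past the adjusted rule without the shallow libraries).

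**Figure D3:**
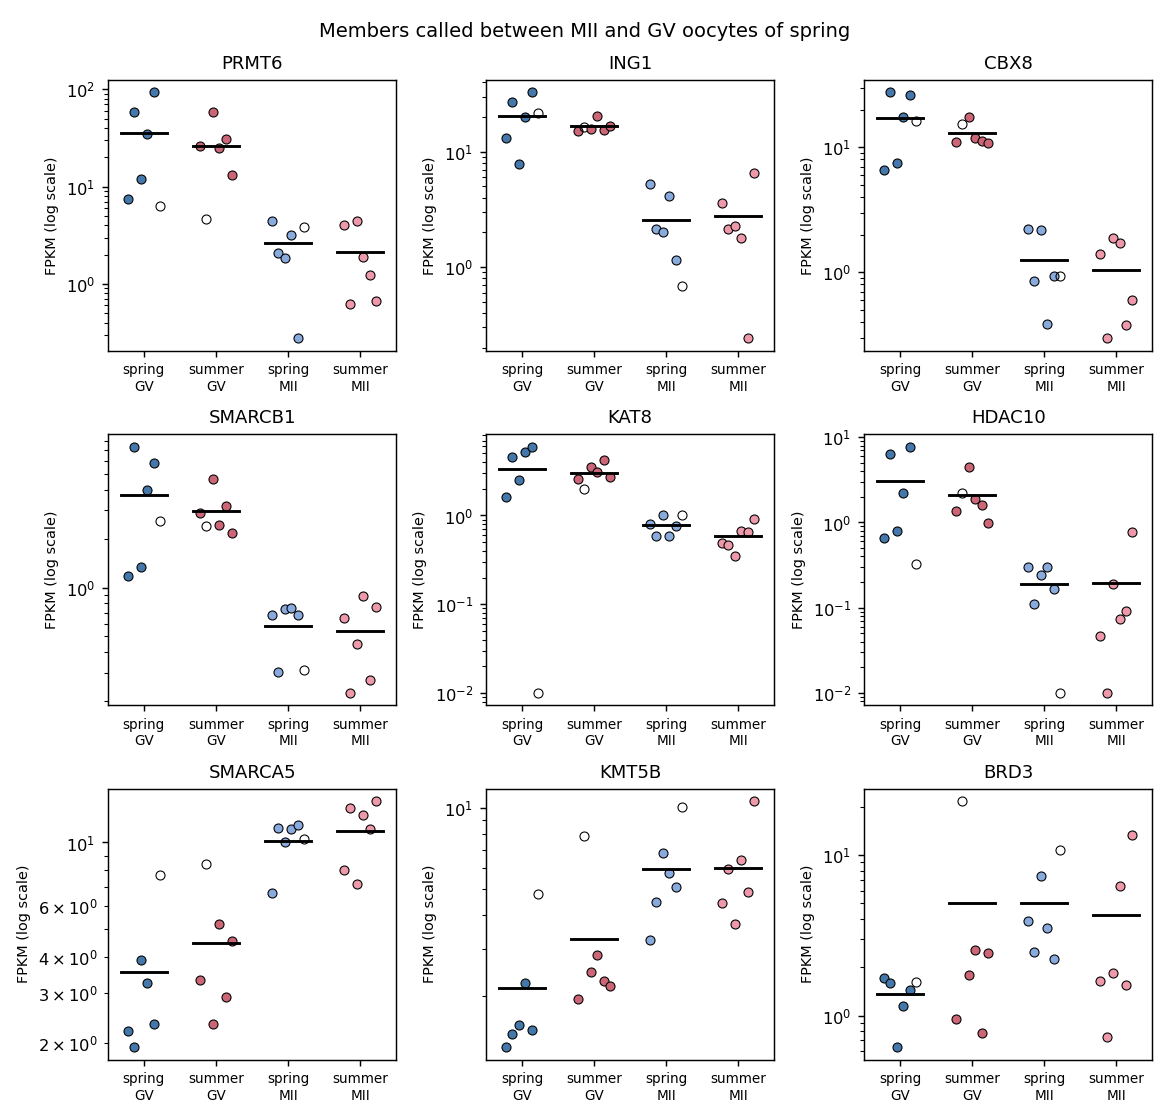
FPKM (log scale) of the 9 members called between MII and GV oocytes of spring, 1 point for each library, bars at the group means of 6 libraries; open points are the 3 shallow libraries. For PRMT6, ING1, CBX8, SMARCB1 and HDAC10 all GV points lie above all MII points of their season, whereas the open GV points of SMARCA5 and KMT5B lie within the MII range.

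The plot of the called members by library also shows a spread that the falling members had in common among GV libraries. Of the 14 members lower in both seasons by the adjusted rule, spring GV library 2 was among the highest 3 of its 6 libraries for 13, library 5 for 13 and library 4 for 10, and library 1 for 1. In summer GV library 3 was among the highest 3 for 13 of them, library 4 for 10, library 2 for 9 and library 6 for 2. Over all 1259 genes lower in both seasons by this rule the share was 73.9% in spring GV library 2, 72% in library 5, 60.9% in library 4 and 26.4% in library 1, and in summer 68.8% in GV library 3, 45.5% in library 4, 49.5% in library 2 and 36.5% in library 6. The summed level of the 14 ran from 32.51 to 174.2 FPKM over the spring GV libraries and from 48.71 to 109.3 FPKM over the summer GV libraries. The 14 members had a median listed gene span of 8.16 kb, the 11 members higher in at least 1 season one of 43.1 kb, and the remaining 53 one of 26.5 kb. Over all tested genes the corresponding medians were 8.70 kb, 27.7 kb and 16.2 kb, in the same order. The part of gene length in these changes was not tested.

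The genes that work with these enzymes were followed in a list of 141 partner subunits and histone genes, of which 134 were tested. In spring 11 were called higher and 7 lower (13.4%, against 11.8% of all genes), and in summer 7 were higher and 9 lower (11.9%, against 11.5%). The partners named here are those with the smallest p of each season and do not stand for their groups. Their median log2 fold change was 0.14 in spring and 0.03 in summer. Of 11 COMPASS partners, which hold the methyltransferases of active promoters, 1 was called higher and 1 lower in spring and 1 higher and 2 lower in summer. WDR5 was the one lower in both seasons, from 11.2 ± 6.42 to 2.36 ± 0.699 FPKM in spring (log2 fold change -1.72, SE 0.33, limma adjusted p = 0.00316) and from 14.02 ± 3.12 to 2.21 ± 1.002 FPKM in summer (-2.27, SE 0.23, limma adjusted p = 2.56e-05). The Polycomb and deacetylase partner RBBP7, a histone-binding protein, rose from 5.96 ± 1.03 to 16.1 ± 2.35 FPKM in spring (1.30, SE 0.18, limma adjusted p = 0.000439). Of 27 acetyltransferase partners 3 were called higher and 2 lower in spring and 2 higher and 3 lower in summer, and among them SGF29, the SAGA subunit that reads methylated histone H3, fell from 1.605 ± 0.476 to 0.208 ± 0.125 FPKM in summer (-1.09, SE 0.14). Of 21 INO80, SRCAP and ISWI partners 2 were called higher and 1 lower in spring and 1 in each direction in summer, and RUVBL2, an ATPase of the INO80 and SRCAP remodelers, fell from 5.34 ± 1.33 to 1.77 ± 0.397 FPKM in spring (-1.18, SE 0.19). The histone variant genes H2AFV and H3F3A moved in opposite directions: H2AFV went from 11.99 ± 2.55 to 1.70 ± 0.925 FPKM and H3F3A from 58.3 ± 16.4 to 144 ± 13.8 FPKM in spring. None of the 14 tested NuRD, SIN3, CoREST and NCOR partners and none of the 9 SWI/SNF partners was called in either season by limma, with 5 and 2 at an unadjusted p under 0.05 in spring (38.8% of all genes) and 4 and 1 in summer (42.1% of all genes).

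The season of collection was compared at each stage, to ask whether heat changed these genes before or after maturation. No member was called by limma between summer and spring GV oocytes (0.0315% of all genes called) or between summer and spring MII oocytes (0.042% of all genes called), and none passed the adjusted rule. At an unadjusted limma p under 0.05 stood 1 member in GV and 3 in MII oocytes, against 1.55% and 2.11% of all genes. The exact permutation test gave 1 and 4 members under 0.05 (the same members, with CHD6 added in MII oocytes), and no member had seasons that did not overlap (0.178% of all genes at either stage). Log2 fold changes of summer against spring ranged from -0.53 to 0.68 over the members in GV and from -0.47 to 0.16 in MII oocytes, with medians of 0.04 and -0.02. The extremes were CBX3 (-0.53, SE 0.78) and BRD3 (0.68, SE 0.50) in GV oocytes and BRD3 (-0.47, SE 0.52) in MII oocytes, so that a change of around 2-fold in such variable members was not detectable with these libraries.

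In GV oocytes CBX5, the heterochromatin protein HP1 alpha, had its lowest, median and highest values at 0.386, 0.585 and 0.905 FPKM in spring and at 0.818, 1.17 and 1.91 FPKM in summer. The ranges overlapped slightly, and the change was 0.41 (SE 0.16, unadjusted limma p = 0.0242, limma adjusted p = 1, exact permutation p = 0.0130). In MII oocytes CBX1, its paralog HP1 beta, had 0.424, 0.583 and 1.06 FPKM in spring and 0.234, 0.370 and 0.576 FPKM in summer (-0.24, SE 0.11, unadjusted limma p = 0.0392, exact permutation p = 0.0130). The 1.06 FPKM was that of shallow library 6, and the 1.91 FPKM of CBX5 in summer GV oocytes that of shallow library 2. SETDB2, a putative histone H3 methyltransferase, had 0.0477, 0.151 and 0.244 FPKM in spring and 0.0290, 0.0916 and 0.107 FPKM in summer (-0.09, SE 0.04, unadjusted limma p = 0.0273, exact permutation p = 0.0390). SIRT2 had 0.0402, 0.121 and 0.194 FPKM in spring and 0.0280, 0.0386 and 0.0527 FPKM in summer (-0.10, SE 0.03, unadjusted limma p = 0.00332, exact permutation p = 0.00649). The summer values of SIRT2 amounted to 28 whole steps over the 6 libraries, against 94 in spring, and all 4 results had a limma adjusted p of 1.

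**Figure D4:**
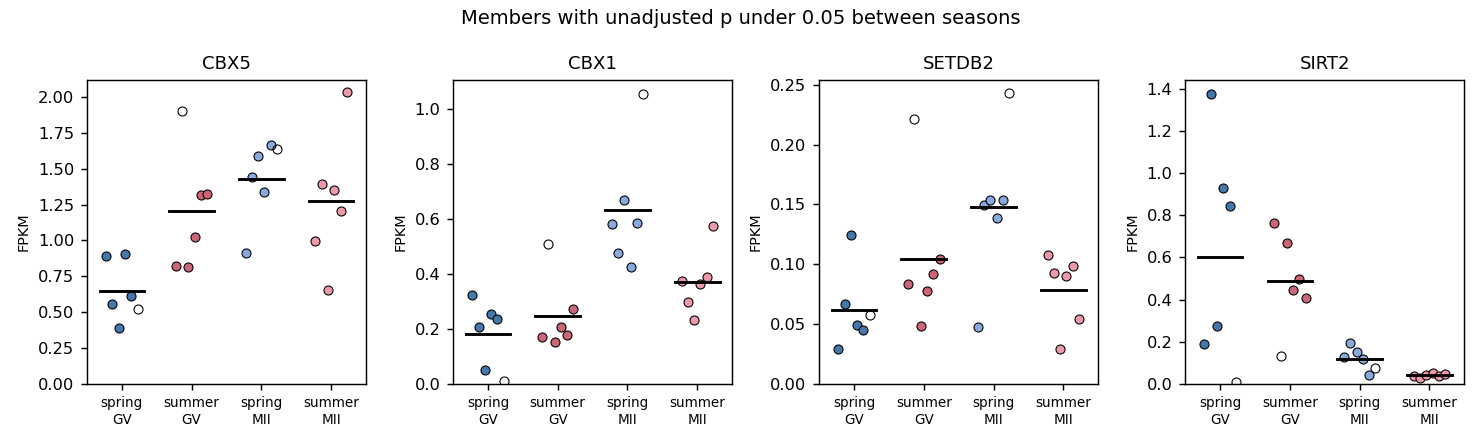
FPKM of the 4 members with an unadjusted limma p under 0.05 between seasons at either stage, 1 point for each library, bars at the means of 6 libraries, open points for the 3 shallow libraries. CBX5 reaches 0.905 FPKM at most in spring GV and at least 0.818 FPKM in summer GV oocytes, and SIRT2 stays at or under 0.0527 FPKM in summer MII oocytes.

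The change from GV to MII was then compared between seasons by the interaction term over all 24 libraries. No member was called (0.21% of all genes called) and none passed the adjusted rule, with 4 members at an unadjusted limma p under 0.05 against 1.8% of all genes. CBX5 changed by 0.56 in spring (past the adjusted rule) and differed by 0.04 in summer (not past it), a difference of -0.52 (SE 0.22). For CBX1 the difference was -0.32 (SE 0.13), for SETDB2 -0.14 (SE 0.05) and for CHD6 -0.08 (SE 0.04). The limma adjusted p was 0.9998 for each of the 4 members. BRD3, called in spring and not in summer, had a difference of -1.15 (SE 0.74, limma adjusted p = 0.9998), and KMT5B, SUV39H1, PRMT5 and KAT8 also passed in 1 season only under some rule without a difference between seasons that passed the test.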

How the data were processed

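RNA was measured in 24 libraries of pooled bovine oocytes (6 for each stage and season) by Smart-seq2 poly(A) capture and Nextera XT libraries. Per the labels, the authors aligned reads with STAR 2.5.3a to UMD3.1 and used Partek, and they deposited FPKM values per gene. The labels speak of individual cells and the study's methods of pools of 4 oocytes. Every library sums to about 86768 FPKM and its lowest listed value is 0.01. The steps behind this scaling are not given in the sources used here. After subtraction of 0.01, values rose in whole steps, and steps were solved for 75 of the 83 members. In an earlier round of step solving over all genes the deepest library was left out. Of its 1322 values checked against those steps, 99.8% were whole within 0.1. Its relative depth was chosen from its own values so that most were whole, so this share does not test the steps of the members. The files give relative, not absolute, depth.

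Symbols were matched by prefix. Of 11306 genes, 9526 exceeded 0.1 FPKM in at least 1 library and were fitted with limma 3.58.1 (trend) in R 4.3.3 on log2(FPKM + 1), with the 2 groups compared in each fit and all 4 groups for the season difference, and with Benjamini-Hochberg adjustment over all genes tested. Single members were also tested by a two-sided exact permutation test over 924 assignments of libraries. These tests treat libraries as independent, so their p-values measure the spread between libraries. Groups can share cows, and this was not modelled because the labels do not tie libraries to cows. Scripts were tested on simulated data.

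Named members were those called in any comparison, those with an unadjusted p under 0.05 between seasons or in the season difference, the highest of each role, and a list of core enzymes, with up to 4 called partners per comparison. Members and lists were chosen with earlier results of these data known. Alternatives were other pseudocounts, filters, scalings and sample sets, the adjusted call rule, a replicate block, and each library left out. Gene coordinates are those in the deposited table. No sequence is shown, since no genome or sequence table of this organism was used here.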

Additional observations from a re-analysis of the deposited data

Results flagged for a closer look

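Among 144 groups of 6 libraries (36 named members in 4 groups), 29 held a library whose gap to its nearest neighbour exceeded Dixon's critical share of the group's range, at which chance flags about 1 group in 20. The 3 shallow libraries gave 22 of them. Spring GV library 6 stood apart at PRMT5 (20.4 FPKM), SMARCE1 (22.8 FPKM), HDAC7 (11.6 FPKM), KMT5B (4.80 FPKM), SETDB1 (1.86 FPKM), CHD4 (1.22 FPKM), KDM4A (0.181 FPKM) and EZH1 (0.168 FPKM). Summer GV library 2 stood apart at BRD3 (21.7 FPKM), HDAC7 (10.2 FPKM), CBX3 (9.47 FPKM), KMT5B (7.88 FPKM), SUV39H1 (6.95 FPKM), SUV39H2 (2.95 FPKM), EHMT2 (2.85 FPKM), CHD4 (2.54 FPKM), HDAC1 (2.43 FPKM), CBX1 (0.510 FPKM) and SETDB2 (0.222 FPKM). Spring MII library 6 stood apart at CBX3 (16.5 FPKM), EHMT2 (7.996 FPKM) and HDAC7 (5.33 FPKM). All 22 of these values were the highest of their group.

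The other 7 were spread over 6 libraries. SMARCA5 was low in spring MII library 1 (6.65 FPKM, the others from 10.03 to 11.5 FPKM). ING1 was high in summer GV library 4 (20.3 FPKM), EHMT1 in summer GV library 3 (0.351 FPKM), PRMT5 in spring MII library 3 (2.70 FPKM), EZH1 in summer MII library 2 (0.0655 FPKM), and HDAC10 (0.767 FPKM) and KDM4A (0.295 FPKM) in summer MII library 6.

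The change from GV to MII differed between seasons at an unadjusted limma p under 0.05 for CBX5 (-0.52 on the log2 scale, summer minus spring), CBX1 (-0.32), SETDB2 (-0.14) and CHD6 (-0.0818), each with a limma adjusted p of 0.9998.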

How the results depend on the processing

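In spring 9 members were called between MII and GV oocytes, and 25 with a pseudocount of 0.1, 32 without a pseudocount and 23 by the adjusted rule, where 27.6%, 37.1% and 24.2% of all genes were called. In summer 9 were called, and 20, 29 and 22 under the same alternatives (26.5%, 37.7% and 30.7% of all genes). Between seasons no member was called, except SIRT2 in MII oocytes without a pseudocount (1 member). For the season difference 1 member (CBX1) was called with a pseudocount of 0.1, 3 (CBX5, KDM5A and SETDB2) without one, and 1 (BRD3) without summer MII library 6. Smaller pseudocounts raise the fold of low members by construction. With each library left out in turn, counts ranged from 8 to 11 in spring, 8 to 10 in summer, 0 to 0 in both season comparisons and 0 to 1 for the season difference. CBX8, HDAC10, ING1, PRMT6, SMARCB1 and SMARCA5 were called in both seasons under all 22 settings each. Of 45 passes of the adjusted rule over both seasons, 34 held in every setting tried for that member. The 11 others were HDAC10 in spring (12 of 22 settings, limma adjusted p up to 0.0749), BRD7 in summer (13 of 22, up to 0.0786), CBX6 in summer (12 of 21), SMARCD3 in summer (13 of 21) and spring (19 of 21), CHD6 and HDAC8 in summer and SIRT6 in spring (15 of 21 each), BRD3 in spring (21 of 22), and HDAC11 in summer and PRMT7 in spring (20 of 21 each).

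The replicate numbers were not taken as pairs, since not every pair of libraries with the same number deviated together. Their correlations ran from -0.169 to 0.535 between GV and MII libraries of spring, from -0.279 to 0.649 in summer, from -0.322 to 0.439 between seasons in GV and from -0.441 to 0.764 between seasons in MII libraries. The library with the same number correlated best for 2, 1, 1 and 4 of the 6 numbers. With the replicate number as a block, 9 members were called in spring and 9 in summer, and 0 in each season comparison and the season difference.

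Depth limits low members: 20.7% of 1800 member values with solved steps rested on fewer than 10 steps, and 84 were at 0.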
